A study of Homo sapiens with 6 samples.

Results

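The aryl hydrocarbon receptor (AHR) pathway was followed through 8 genes chosen by function, with earlier results of these data known. They are the receptor AHR, its partners ARNT and ARNT2, its repressor AHRR, and the target genes CYP1A1, CYP1A2, CYP1B1 and TIPARP. Rows were taken by gene symbol, and all 8 were found among the 20030 symbols listed for each library. The data are RNA-seq of 6 samples labelled SKOV3, the name of a human ovarian carcinoma line. Of these, 3 came from cells kept for 24 h in 5% trehalose, the vehicle, and 3 from cells kept for the same time with recombinant human CCL20 (rhCCL20), a chemokine, dissolved in that vehicle. Trehalose was thus present in both groups. The labels give no rhCCL20 dose and do not say that the replicates were separate cultures, so each p-value below speaks of variation among these samples alone, and that variation may be technical.

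AHR is a ligand-activated transcription factor of the bHLH-PAS family that is held in the cytosol in a complex with HSP90 chaperones. When a ligand such as a dioxin, a polycyclic aromatic hydrocarbon or a tryptophan metabolite binds, AHR enters the nucleus, pairs with ARNT and binds the xenobiotic response element, whose core is GCGTG. The cytochrome P450 genes CYP1A1, CYP1A2 and CYP1B1 are its best known targets, and AHRR and TIPARP are targets that feed back on the receptor. CYP1B1, an enzyme that hydroxylates estradiol and polycyclic hydrocarbons, is known for its expression in ovarian and other carcinomas, while CYP1A2 is known as a liver enzyme.

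Promoter sequences are shown for 4 target genes that share the pathway but differed in transcript level. They are the 250 bases before a RefSeq start on GRCh38.p14, written 5′ to 3′ on the strand of the gene in lower case, with the core GCGTG, or CACGC where it lies on the other strand, in capitals. The CYP1A1 window is chr15:74725529-74725778 on the minus strand, the CYP1A2 window chr15:74748595-74748844 on the plus strand, the AHRR window chr5:321464-321713 on the plus strand and the TIPARP window chr3:156674340-156674589 on the plus strand.
CYP1A1: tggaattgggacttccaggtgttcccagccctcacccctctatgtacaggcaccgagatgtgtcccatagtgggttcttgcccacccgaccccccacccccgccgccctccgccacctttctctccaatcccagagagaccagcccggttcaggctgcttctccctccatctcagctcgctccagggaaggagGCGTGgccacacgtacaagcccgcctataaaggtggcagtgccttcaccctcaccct
CYP1A2: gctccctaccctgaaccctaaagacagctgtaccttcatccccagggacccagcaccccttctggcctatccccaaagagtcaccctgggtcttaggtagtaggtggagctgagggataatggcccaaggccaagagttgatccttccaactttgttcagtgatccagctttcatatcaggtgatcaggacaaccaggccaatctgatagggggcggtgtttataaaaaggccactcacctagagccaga
AHRR: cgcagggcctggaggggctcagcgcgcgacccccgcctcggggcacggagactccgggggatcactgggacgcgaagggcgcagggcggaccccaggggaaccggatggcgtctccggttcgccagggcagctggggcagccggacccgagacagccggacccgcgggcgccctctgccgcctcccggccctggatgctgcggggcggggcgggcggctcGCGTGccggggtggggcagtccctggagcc
TIPARP: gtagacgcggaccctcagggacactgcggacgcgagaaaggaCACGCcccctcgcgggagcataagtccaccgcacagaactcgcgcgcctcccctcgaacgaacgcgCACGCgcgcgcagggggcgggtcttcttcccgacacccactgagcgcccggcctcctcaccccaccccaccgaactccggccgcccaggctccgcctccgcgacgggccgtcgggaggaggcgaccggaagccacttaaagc
The CYP1A1 window held 1 core, 57 to 53 bases before the start, and the CYP1A2 window held 0. The AHRR window held 1, 30 to 26 bases before the start, which was also the only match among the windows of the members to the longer form TNGCGTG. The TIPARP window held 2, at 208 to 204 and 142 to 138 bases before the start. Searched on both strands, GCGTG was present in 32.2% of all 35116 RefSeq windows of this length and TNGCGTG in 4.52%, so a core in a window is common. The related core ACGTG, which hypoxia-inducible factors paired with ARNT are known to bind, was in 18.5% of windows. It lay in the CYP1A1 window at 48 to 44 bases before the start, without overlap with GCGTG, and in the AHR window, where its matches on both strands overlapped each other. The RefSeq table held 9 windows for 6 of the 8 genes. AHRR and TIPARP have more than 1 start there, and the window of the first is shown. The second AHRR window held 2 cores, and the windows of AHR, ARNT and the later TIPARP starts held 0. CYP1B1, the gene with the highest level of the 8, and ARNT2 have none shown here. Only these 250 bases were searched, so cores elsewhere around a gene are not counted.

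Values are FPKM (fragment numbers corrected for transcript length and library size), so that levels of different genes can be set side by side. The summed FPKM lay between 301805 and 310080 per library. The absolute depth is unknown. Relative depth was read from the spacing of low values, taking vehicle replicate 1 as 1. It was 0.946 to 1 in vehicle and 1.005 to 1.09 with rhCCL20. The estimates were thus higher in every treated library, though rhCCL20 replicate 1 lay close to vehicle replicate 1. No error of these estimates was computed. The library of rhCCL20 replicate 3 stood apart, at 11.7 on the first principal component (38.8% of the variance), and the other libraries ranged from -3.96 to -0.74. The keratins KRT8 and KRT18 and the filament gene VIM averaged 641, 588 and 340.1 FPKM. The ovarian lineage genes PAX8 and WT1 and the mucin MUC16 were each under 0.3 FPKM in every library. ERBB2, known as amplified in SKOV3, averaged 7.83 FPKM, and CDKN2A, known as deleted there, averaged 16.4 FPKM. Because the values of ERBB2 and CDKN2A go against the label, SKOV3 is used here as a label and not as a checked identity.

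The pathway genes differed widely in level, from CYP1A2, listed at 0, to CYP1B1, far above the rest. In order of mean level over the 6 libraries they were CYP1B1 at 113, ARNT at 11.4, TIPARP at 8.79, AHR at 6.40, AHRR at 0.776, ARNT2 at 0.598 and CYP1A1 at 0.319 FPKM, with CYP1A2 listed at 0. Each gene was above the next in all 6 libraries and their ranges did not overlap, with the exception of AHRR and ARNT2, where AHRR was higher in 5 of 6 libraries and the ranges overlapped. CYP1B1 stood at percentile 95.8 of the mean levels of the 10263 genes tested below, ARNT at 58.2, TIPARP at 50.5 and AHR at 41.0. In bulk RNA, fewer expressing cells and less RNA per cell cannot be told apart, which touches the scarce transcripts most.

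**Figure D1:**
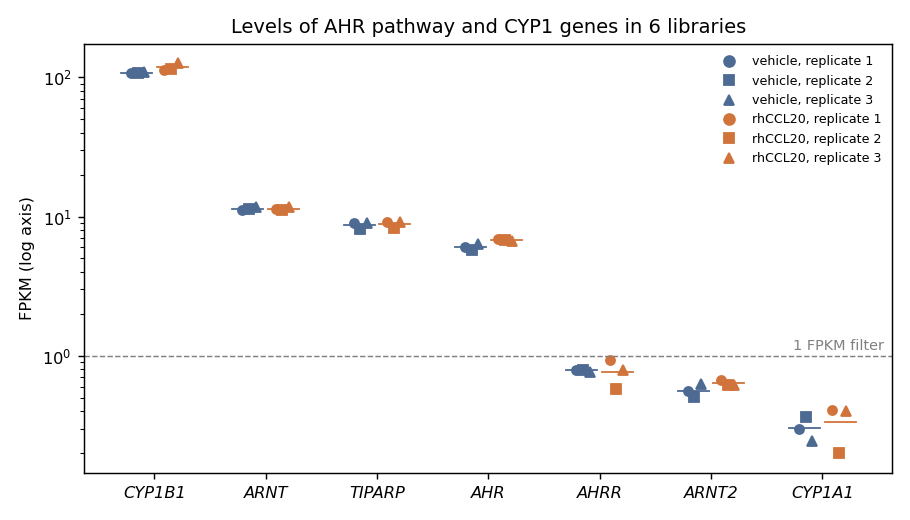
FPKM of 7 of the 8 genes in each library on a log axis, with vehicle in blue and rhCCL20 in orange, symbols for replicates and short lines for group means (n = 3 each). CYP1A2, listed at 0 in all 6 libraries, is not drawn. CYP1B1 lies between 106.6 and 126 FPKM, and AHRR, ARNT2 and CYP1A1 lie under the 1 FPKM filter, drawn as a dashed line.

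The comparison of rhCCL20 with vehicle asked whether exposure to the chemokine was accompanied by other levels of these transcripts. None of the 4 members that could be tested passed. AHR and CYP1B1 had means 12.4% and 9.34% higher with rhCCL20 in groups that did not overlap, while the groups of ARNT and TIPARP overlapped, with treated means that differed from vehicle by -0.197% and 2.02%. A gene was tested where 3 or more libraries reached 1 FPKM, which AHR, ARNT, CYP1B1 and TIPARP met in all 6 libraries, and used limma on log2(FPKM + 1) with Benjamini-Hochberg adjustment over all 10263 genes at a threshold of 0.05. Over all genes 1 was called (0.00974%), GAGE12G, which is no member. All fold changes below are on this scale, which understates the change of low genes.

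The receptor AHR had 5.998, 5.72 and 6.37 FPKM in the vehicle libraries, in the order of replicates 1 to 3 used throughout, and 6.89, 6.76 and 6.68 FPKM with rhCCL20. Every treated library lay above every vehicle library, and the means were 6.03 ± 0.33 and 6.78 ± 0.11 FPKM (SD, n = 3 each). The log2 fold change was 0.15 (SE 0.053, 95% interval 0.029 to 0.27), with an unadjusted p of 0.020 and a limma adjusted p of 0.937. Among the genes tested, 411 had a fold change of at least this size in either direction. GENCODE 29, the annotation on GRCh38 used for all positions here, places AHR on the plus strand of chromosome 7 from 16916359 to 17346152. The gene AC019117.2 on the same strand shares 2373 of the 8081 exonic bases of AHR and the antisense gene AC073332.1 shares 270, so reads there could come from either gene.

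The partner ARNT, which also pairs with hypoxia-inducible factors, was at 11.1, 11.4 and 11.8 FPKM in vehicle and at 11.3, 11.1 and 11.7 FPKM with rhCCL20. The groups overlapped throughout, with means of 11.4 ± 0.33 and 11.4 ± 0.30 FPKM (SD, n = 3 each), and the log2 fold change was -0.0026 (SE 0.045, 95% interval -0.10 to 0.098, limma adjusted p = 0.995). The ratio of AHR to ARNT within a library was 0.540, 0.502 and 0.542 in vehicle and 0.609, 0.607 and 0.570 with rhCCL20. This ratio was therefore higher in each treated library, as AHR itself was, and no test was run on it. ARNT2, a close relative of ARNT known from neurons, was at 0.563, 0.502 and 0.622 FPKM in vehicle and 0.666, 0.615 and 0.618 FPKM with rhCCL20, with overlapping groups. ARNT exceeded ARNT2 between 17.0 and 22.7 times in a library. ARNT lies on chromosome 1 from 150809705 to 150876768 on the minus strand, and ARNT2 on chromosome 15 from 80404350 to 80597937 on the plus strand.

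The target CYP1B1 was at 108, 107 and 109.5 FPKM in vehicle and at 114, 115 and 126 FPKM with rhCCL20. All treated libraries lay above all vehicle libraries, and the highest value was that of rhCCL20 replicate 3, the library that stood apart. The means were 108 ± 1.5 and 118 ± 6.6 FPKM (SD, n = 3 each). The log2 fold change was 0.13 (SE 0.043, 95% interval 0.029 to 0.22) with an unadjusted p of 0.0163 and a limma adjusted p of 0.937. Leaving out that library gave a log2 fold change of 0.081 (limma adjusted p = 0.813). The ratio of CYP1B1 to AHR lay between 17.2 and 18.6 in vehicle and between 16.5 and 18.8 with rhCCL20, so it overlapped between the groups. That of CYP1B1 to ARNT was 9.72, 9.36 and 9.32 in vehicle and 10.05, 10.33 and 10.72 with rhCCL20, higher in each treated library. No test was run on these ratios. CYP1B1 lies on chromosome 2 from 38066973 to 38109902 on the minus strand. The antisense gene CYP1B1-AS1 shares 678 of the 6014 exonic bases of CYP1B1, and since the use of strand is not given in the sources used here, reads from that stretch could come from either gene.

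The target TIPARP, a mono-ADP-ribosyltransferase that modifies and represses AHR, was at 9.01, 8.13 and 8.96 FPKM in vehicle and at 9.15, 8.31 and 9.17 FPKM with rhCCL20. Replicate 2 was the lowest library of each group, and the groups overlapped, with means of 8.70 ± 0.50 and 8.88 ± 0.49 FPKM (SD, n = 3 each). The log2 fold change was 0.026 (SE 0.058, 95% interval -0.10 to 0.16, limma adjusted p = 0.971). TIPARP lies on chromosome 3 from 156673235 to 156706770 on the plus strand.

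Of the 4 tested members, 2 had an unadjusted p under 0.05, against 4.73% of all genes tested. Counting only genes higher with rhCCL20, the background was 2.57%. The same 2, AHR and CYP1B1, had groups that did not overlap with rhCCL20 higher, against 6.88% of all genes. None had groups that did not overlap in the other direction, against 4.13%. With 4 genes, chosen with earlier results of these data known, these shares are a description and no test of the pathway. Without vehicle replicate 2, 0 of the 4 had an unadjusted p under 0.05 in limma (0.0851 for AHR and 0.051 for CYP1B1), and that of AHR was 0.0537 when vehicle replicate 1 was left out and 0.0618 when rhCCL20 replicate 1 was. The 95% interval of the fold of FPKM + 1 was 1.02 to 1.20 for AHR, 1.02 to 1.17 for CYP1B1, 0.931 to 1.07 for ARNT and 0.930 to 1.11 for TIPARP.

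**Figure D2:**
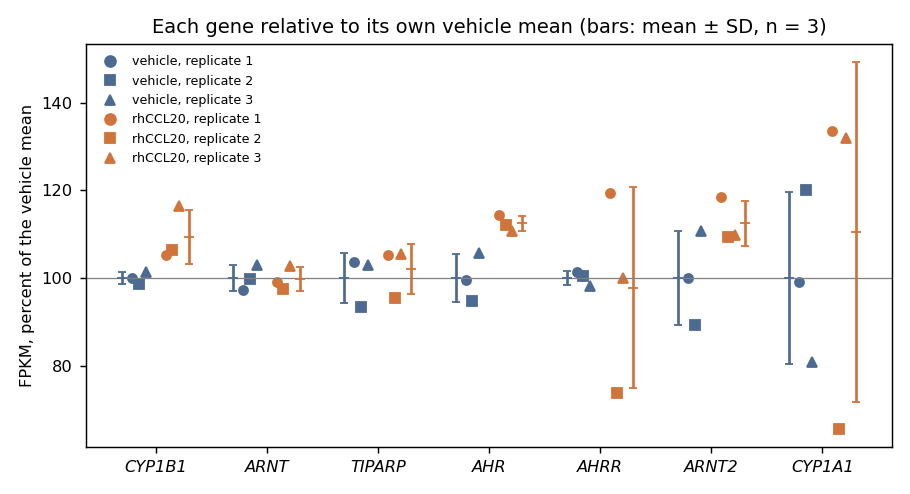
FPKM of each gene as a percentage of its own vehicle mean, on a linear axis, without CYP1A2, whose vehicle mean is 0, for vehicle (blue) and rhCCL20 (orange) libraries, with symbols for replicates and bars for the mean ± SD (n = 3 each). The treated libraries of AHR and CYP1B1 lie above all vehicle libraries, and the scatter is widest for CYP1A1, where it reached 35.1% of the mean with rhCCL20.

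The remaining 4 members were under the filter and were not tested there. The part of the depth difference between the groups in their values was not tested. AHRR, which competes with AHR for ARNT, was at 0.796, 0.790 and 0.770 FPKM in vehicle and at 0.938, 0.580 and 0.785 FPKM with rhCCL20. Its treated libraries lay on both sides of the narrow vehicle range, and the means were 0.785 ± 0.013 and 0.768 ± 0.18 FPKM (SD, n = 3 each). AHRR lies on chromosome 5 from 304176 to 438291 on the plus strand, and 244 of its 7678 exonic bases are shared with PDCD6, a calcium-binding protein gene on the same strand that averaged 157 FPKM, so that fragments there could be assigned to either gene.

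CYP1A1, the classical marker of AHR activation, was at 0.3001, 0.364 and 0.245 FPKM in vehicle and at 0.405, 0.199 and 0.400 FPKM with rhCCL20. The groups overlapped, with both the lowest and the highest library among the treated ones, and the means were 0.303 ± 0.059 and 0.334 ± 0.12 FPKM (SD, n = 3 each). CYP1B1 exceeded CYP1A1 between 281 and 578 times in a library. CYP1A2 was listed at 0 in all 6 libraries. CYP1A1 and CYP1A2 lie head to head on chromosome 15, from 74719542 to 74725610 on the minus strand and from 74748844 to 74756202 on the plus strand, 23233 bases apart. Of 6 hepatocyte markers, ALB and TTR were also listed at 0 in all libraries. SERPINA1, CYP2E1, APOA1 and CYP3A4 averaged 0.144, 0.042, 0.038 and 0.0022 FPKM. With no filter on low values, the limma log2 fold changes were 0.064 for ARNT2 (95% interval -0.025 to 0.15), -0.019 for AHRR (-0.20 to 0.16) and 0.032 for CYP1A1 (-0.14 to 0.20). That fit covered 16355 genes and called 0, with 861 at an unadjusted p under 0.05.

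CYP1B1 was the highest of the 56 P450 genes listed in the files and made up 66.3% of their summed mean FPKM. The next was CYP51A1, a demethylase of cholesterol synthesis, at 39.1 FPKM, which CYP1B1 exceeded 2.89 times. CYP11A1, the cholesterol side-chain cleavage enzyme, followed at 8.30 FPKM and was singled out after its value was seen. Only 6 of the 56 P450 genes met the filter, 15 were listed at 0 in all 6 libraries, and CYP1A1 ranked 14.

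**Figure D3:**
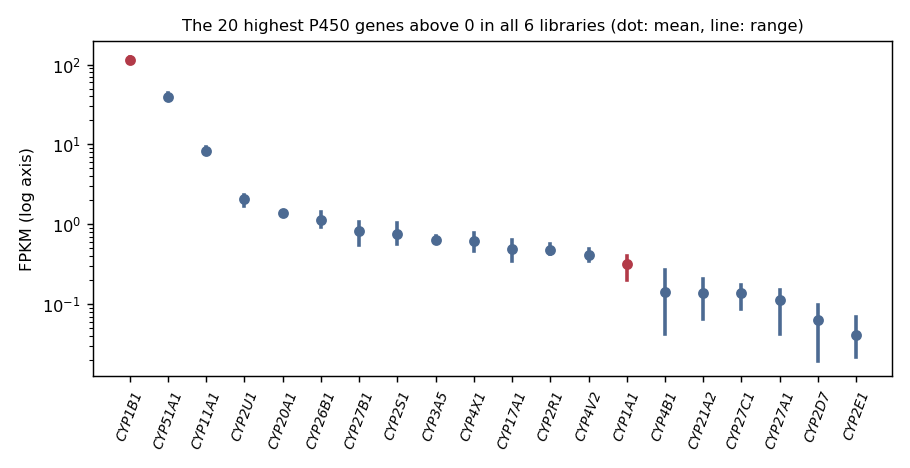
Mean FPKM (dots) and range over the 6 libraries (lines) of the 20 highest P450 genes that were above 0 in every library, on a log axis, with CYP1 genes in red. CYP1B1 is at the top at 113 FPKM, and CYP1A1 is in place 14 at 0.319 FPKM.

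Genes around the pathway were read from lists chosen by function, and in each list 0 genes rose and 0 fell at the threshold. Members of the cytosolic complex of AHR ranged widely in level. The kinase SRC averaged 4.13 FPKM. The chaperones HSP90AB1 and HSP90AA1 averaged 539 and 389.9 FPKM and the cochaperone PTGES3 averaged 94.2 FPKM. PTGES3 also had the smallest p of the list, with 91.2, 93.1 and 92.4 FPKM in vehicle and 95.8, 98.1 and 94.3 FPKM with rhCCL20. Its treated libraries lay above all vehicle libraries, as they did for 6.88% of all genes tested. The log2 fold change was 0.058 (95% interval -0.017 to 0.13), with a limma adjusted p of 0.937. Over the 5 genes of this list, 3 higher and 2 lower, the median log2 fold change was 0.015, beside a median of 0.012 over all genes tested.

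Among bHLH-PAS relatives, HIF1A averaged 205 FPKM, EPAS1 39.8 FPKM and the clock gene PER1 28.0 FPKM, so that the hypoxia factors HIF1A and EPAS1, which also use ARNT, were above ARNT itself, while HIF3A averaged 0.655 FPKM. The median log2 fold change of the 11 tested genes was 0.0079, and the smallest p was that of the coactivator NCOA1, at a log2 fold change of 0.12. The 10 hypoxia targets of the ARNT partners had a median of 0.0028, with BNIP3 and ADM, the most abundant, at 68.3 and 61.3 FPKM and SLC2A1 at 25.2 FPKM. BNIP3, a mitophagy receptor, had the smallest p at a log2 fold change of 0.070. BNIP3 and EGLN1 were the 2 of these 10 genes whose groups did not overlap, both higher with rhCCL20, against 6.88% of all genes tested. The 11 tested coregulators and turnover genes had log2 fold changes from 0.0062, under the median of all genes, to 0.14, and a median of 0.049. Leaving out rhCCL20 replicate 3 brought this median to -0.0013, leaving out vehicle replicate 2 to 0.017, and leaving out rhCCL20 replicate 2 to 0.101. The most abundant were RELA, SP1 and SMARCA4 at 23.5, 23.4 and 19.7 FPKM. RB1, a cell cycle inhibitor that binds AHR, had the smallest p there at the highest of these fold changes, and its highest value, 17.1 FPKM, was in rhCCL20 replicate 3.

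Of 18 further AHR targets, 8 were tested, with a median log2 fold change of 0.036. The amino acid transporter SLC7A5 averaged 157 FPKM and had the smallest p, at a log2 fold change of 0.059. NFE2L2, the antioxidant response factor, averaged 37.8 FPKM at 0.041, and the quinone reductase NQO1 27.1 FPKM at 0.032. The glutathione transferases GSTA1 and GSTA2 were listed at 0 in all libraries. In the tryptophan and kynurenine list, whose products include AHR ligands, 4 of 13 genes were tested, with a median of 0.052. The kynureninase KYNU averaged 41.3 FPKM at a log2 fold change of 0.058, KYAT3 8.08 FPKM at 0.077 and KYAT1 4.61 FPKM at -0.071. The first enzymes of the route were scarce, with TDO2 listed at 0 and IDO1 at 0.248 FPKM, both singled out after their values were seen.

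Of the 5 electron partners of P450 enzymes, 4 were tested and CYB5A, at 0.243 FPKM, was under the filter. PGRMC1 averaged 170.3 FPKM, the reductase POR 82.0 FPKM and CYB5B 30.5 FPKM, and the median of the 4 tested genes was -0.024. POR had the smallest p, with 81.8, 85.5 and 83.9 FPKM in vehicle and 81.6, 79.4 and 79.7 FPKM with rhCCL20. Its treated libraries lay below all vehicle libraries at a log2 fold change of -0.061 and a limma adjusted p of 0.937. The list of other P450 enzymes, which leaves out CYP11A1, had 4 tested members with a median of 0.037, with CYP51A1 at 0.054, CYP2U1 at 0.072 and CYP20A1 at 0.021. The 8 tested ADP-ribosylation relatives of TIPARP had a median of 0.038, with PARP1 at 86.8 FPKM, ADPRHL2 at 16.0 FPKM and PARP10 at 11.3 FPKM. ZC3HAV1 had the smallest p, at a log2 fold change of 0.11. PARP9 was the 1 gene of these 8 whose groups did not overlap, higher with rhCCL20, against 6.88% of all genes tested.

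**Figure D4:**
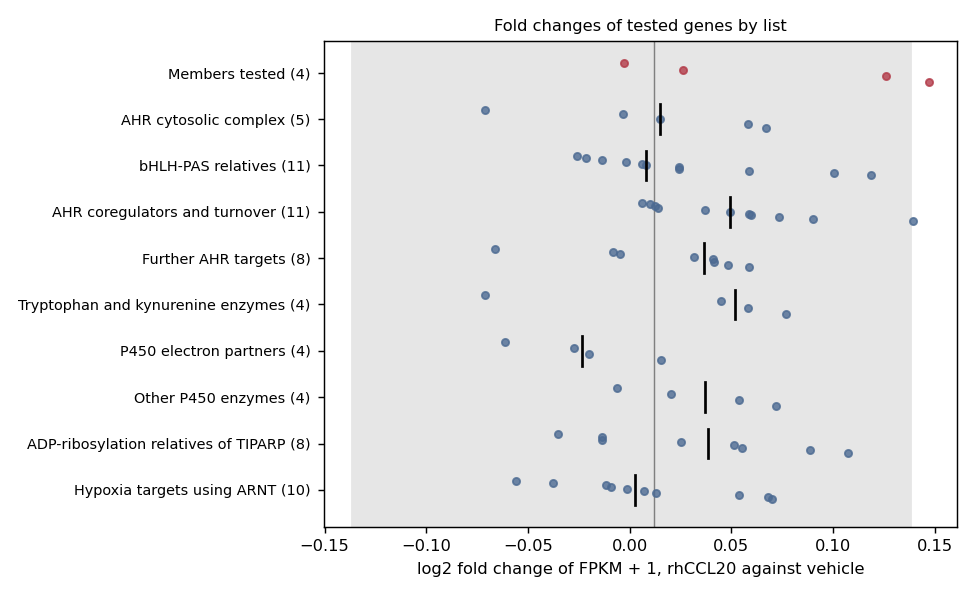
Log2 fold changes of FPKM + 1, rhCCL20 against vehicle, of the tested members (red) and of the tested genes of each pathway list (blue; marker lists are not drawn), with black bars for list medians, the number tested in brackets, a grey line for the median of all genes tested and a grey band for the middle 95% of them, -0.14 to 0.14. AHR and the coregulator RB1 lie just above the band.

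The library patterns most like those of 3 members were sought over the 6 libraries on the scale of log2(FPKM + 1). For AHR they were those of GINS4 (Pearson r = 0.990), GTF2A1 (0.977) and KDSR (0.977), and 59 genes had an r of at least 0.9. For CYP1B1 they were those of SLC4A7 (0.993), TRIM16L (0.993) and PRICKLE3 (0.992), and 374 genes had an r of at least 0.9. For TIPARP they were those of CRTC3 (0.986), ACSL5 (0.986) and CELF1 (0.984), and 81 genes had such an r. These values describe 6 libraries that share depth and the library that stood apart, and they carry no p.

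Markers of other cell types were read from the same libraries. The summed FPKM of 10 leukocyte markers was 13.1 to 18.7 in vehicle and 15.8 to 17.8 with rhCCL20, most of it CD68 at 11.1 and LYZ at 2.86 FPKM, and the pan-leukocyte gene PTPRC averaged 0.218 FPKM. The log2 fold changes of CD68 and LYZ were 0.039 and 0.87, with a limma adjusted p of 0.937 each. LYZ was at 5.24, 0.692 and 0.469 FPKM in vehicle and at 3.58, 2.92 and 4.27 FPKM with rhCCL20, so its vehicle libraries differed widely. Its log2 fold change was 1.53 without vehicle replicate 1 (limma adjusted p = 0.00317). It was 0.59 without vehicle replicate 2 and 0.49 without vehicle replicate 3. The median of the 2 tested leukocyte markers was 0.45, 0.77 without vehicle replicate 1 and 0.27 without vehicle replicate 3. The 6 fibroblast markers summed to 9.06 to 9.75 FPKM in vehicle and 9.13 to 9.30 FPKM with rhCCL20. LUM, COL1A1 and PDGFRB averaged 4.44, 1.94 and 1.93 FPKM, and PDGFRB had the smallest p at a log2 fold change of -0.096. DCN, THY1 and COL1A2 were under the filter, at means of 0.884, 0.093 and 0.0028 FPKM. The part of such cells in the values of the members was not tested.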

How the data were processed

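RNA of 6 samples was prepared with Trizol, and libraries with an Illumina TruSeq kit, per the labels' protocols. Per the file headers, the authors deposited FPKM, with 1 value for each symbol and library. GRCh38 is the build in the submitters' processing notes, which also list HISAT2, HTSeq, Cufflinks and Trimmomatic. The sources used here do not give versions, annotation, use of strand or filters. FPKM hides fragment numbers, so no counting intervals are given.

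Groups follow the labels. The test was limma 3.58.1 (R 4.3.3, eBayes with a trend), run on every gene that reached 1 FPKM in 3 or more libraries, on log2(FPKM + 1), group being the only term, at a Benjamini-Hochberg adjusted p of 0.05. The fit was also run on simulated data with independent noise and changes larger than those of the members. The simulation held no outlying library and no depth difference, so it does not speak of changes as small as theirs. Relative depth is the mode of ratios of values under 0.3 FPKM. Positions are from GENCODE 29 and promoters from RefSeq on GRCh38.p14, not necessarily the annotation the authors used.

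The members and lists were chosen with earlier results of these data known. Named are all members, of each list the 3 tested genes with the highest mean and the 1 with the smallest p, and for AHR, CYP1B1 and TIPARP the 3 genes with the highest correlation. Some genes of the lists are not reported here. Genes named beside these are examples or markers. Alternatives tried were pseudocounts of 0.1 and 0.5, a filter at 5 FPKM or none, quantile or median normalization, eBayes without a trend, a replicate block, and each library left out in turn.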

Additional observations from a re-analysis of the deposited data

How the results depend on the processing

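In all 14 alternatives 0 members passed the threshold. The count of 1 gene called over all genes became 0 when low genes were kept (861 at an unadjusted p under 0.05 in limma). It lay between 1 and 3 over the libraries left out in turn, the 3 coming without vehicle replicate 1. AHR and CYP1B1 were higher with rhCCL20 in every alternative, with log2 fold changes of 0.115 to 0.182 and 0.081 to 0.153 when a library was left out, and adjusted p between 0.716 and 1 in limma. The lowest value of CYP1B1 came without rhCCL20 replicate 3, and that of AHR without vehicle replicate 2. The fold change of ARNT, -0.0026, lay between -0.022 and 0.017 when a library was left out, and changed sign when vehicle replicate 3 (0.017), rhCCL20 replicate 1 (0.0020) or rhCCL20 replicate 2 (0.012) was absent. That of TIPARP, 0.026, lay between -0.017 and 0.068 and changed sign without vehicle replicate 2 (-0.017). The cause was not tested. Of the list medians, 13 of 167 alternatives moved by more than the spread between replicates, among them the further AHR targets (0.0022) and the tryptophan list (0.0016) with no filter. The leukocyte list had 1 call without vehicle replicate 1, LYZ. The replicate block left 1 gene called and 0 members, with unadjusted p of 0.0285 for AHR and 0.0094 for CYP1B1 in limma. When a library was left out, the unadjusted p was above 0.05 for AHR without vehicle replicate 1 or 2 or rhCCL20 replicate 1 (up to 0.0851) and for CYP1B1 without vehicle replicate 2 (0.051). The labels do not say that replicate numbers pair the samples, so the numbers were not taken to pair them. The deviations from the group means of libraries with the same number had correlations of -0.101, 0.035 and 0.097. With 3 libraries in each group, these values cannot settle whether the samples were paired. Unknown depth, whose relative estimates were higher in the treated libraries, limits what can be read from AHRR, ARNT2 and CYP1A1.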
